A study of Mus musculus with 6 samples.

Results

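The keratin genes are described here across 6 RNA-seq libraries of mouse tissue (strain C57BL/6N, E12.5, which is mid-gestation), of which 3 were labelled wild type and 3 lnc956 knockout. The members are every row of the deposited expression table whose symbol is Krt followed by a number, which gave 11 of the 7101 genes in the table. At the centre are 2 pairs: Krt8 and Krt18, the keratins of simple (single-layered) epithelia, and Krt5 and Krt15, keratins of the basal layer of epidermis and other stratified epithelia. The others are the simple-epithelial keratins Krt7, Krt19 and Krt23, the keratins Krt1 and Krt10 of the upper epidermis, Krt17 of skin appendages and activated epidermis, and Krt80, a widely expressed epithelial keratin. Other keratins, such as Krt14, the usual partner of Krt5, were not analysed here. Both groups carry the tissue label embryo, and RNA had been taken from embryos at this stage with Trizol. lnc956 is a long noncoding RNA, and since its own level was not analysed here, only the labels give the genotype of a library. The labels do not say how the allele was made or whether a replicate is a separate embryo. The p-values therefore reflect the spread among these 6 libraries, which may be technical.

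Keratins are intermediate filament proteins of epithelial cells. A filament forms only from pairs of 1 type I (acidic) and 1 type II (basic) keratin, so the types are made in matched amounts, and the pair a cell makes reflects its kind of epithelium. Krt8 (type II) and Krt18 (type I) form the first keratin filaments of the mouse embryo and are made in trophoblast, yolk sac endoderm and the linings of internal organs, where Krt7 (type II) and Krt19 (type I) often accompany them. Surface ectoderm begins with Krt8 and Krt18 and turns on Krt5 (type II), Krt14 and Krt15 (type I) as it commits to becoming epidermis; Krt1 (type II) and Krt10 (type I) follow when cells leave the basal layer.

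In GENCODE M21 on GRCm38, the 11 genes, all annotated as protein coding, lie in the usual pair of mouse keratin clusters. On chromosome 15, 6 of them lie between 101347444 and 102032027: Krt80, Krt7, Krt5, Krt1, Krt8 and Krt18, all of type II except Krt18. On chromosome 11, 5 genes of type I lie between 99385254 and 100261029: Krt10, Krt23, Krt15, Krt19 and Krt17. Krt8 (chromosome 15, 101996698 to 102004482, minus strand) and Krt18 (102028180 to 102032027, plus strand) are neighbours pointing away from each other across a gap of 23.7 kb. Krt5 lies at 101707070 to 101712898 on the same chromosome, and Krt15 at 100131758 to 100135928 on chromosome 11. The deposited values carry no coordinates, and these are the spans of whole genes in that annotation.

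The promoters of Krt8, Krt18, Krt7 and Krt5 are shown because these genes moved together or in opposite directions in the results that follow. They are taken from RefSeq on GRCm38.p6, which had a promoter for 6 of the 11 genes (Krt19 not among them), and each runs 5′ to 3′ on the gene's own strand from 250 bases before the annotated start to 50 after it. They are chr15:102004293-102004592 (minus strand) for Krt8, chr15:102027966-102028265 (plus) for Krt18, chr15:101412153-101412452 (plus) for Krt7 and chr15:101712856-101713155 (minus) for Krt5. Capitals mark matches, on either strand, to any of 5 motifs: TGANTCA (AP-1), GCCNNNGGC (AP-2), GGGCGG (Sp1), AACCNGTT (grainyhead-like) and, for the TATA box, TATAAA.
Krt8: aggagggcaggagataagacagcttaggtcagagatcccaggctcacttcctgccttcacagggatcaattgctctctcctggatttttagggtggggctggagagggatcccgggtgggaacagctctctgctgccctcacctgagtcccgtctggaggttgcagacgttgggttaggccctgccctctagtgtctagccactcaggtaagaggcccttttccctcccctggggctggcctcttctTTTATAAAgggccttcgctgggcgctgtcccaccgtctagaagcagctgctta
Krt18: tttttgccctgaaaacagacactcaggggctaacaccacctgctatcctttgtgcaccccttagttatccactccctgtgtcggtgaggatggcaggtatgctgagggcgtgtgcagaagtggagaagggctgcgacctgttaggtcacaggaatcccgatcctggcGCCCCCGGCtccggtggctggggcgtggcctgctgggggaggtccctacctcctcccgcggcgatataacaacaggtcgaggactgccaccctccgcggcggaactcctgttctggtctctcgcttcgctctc
Krt7: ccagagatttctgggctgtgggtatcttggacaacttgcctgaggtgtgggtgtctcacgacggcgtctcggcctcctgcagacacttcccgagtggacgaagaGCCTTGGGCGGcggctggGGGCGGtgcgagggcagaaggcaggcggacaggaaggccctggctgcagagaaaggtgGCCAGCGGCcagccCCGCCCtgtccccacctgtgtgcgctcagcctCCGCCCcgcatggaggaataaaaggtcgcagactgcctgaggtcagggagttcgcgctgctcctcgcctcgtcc
Krt5: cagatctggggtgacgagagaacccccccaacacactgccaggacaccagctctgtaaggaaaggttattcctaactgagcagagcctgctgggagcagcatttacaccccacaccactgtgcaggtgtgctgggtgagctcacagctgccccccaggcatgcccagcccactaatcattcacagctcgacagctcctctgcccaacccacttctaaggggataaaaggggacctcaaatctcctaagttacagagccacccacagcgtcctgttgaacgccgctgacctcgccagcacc

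The AP-2 motif was found at 2 places in the Krt7 window and 1 in the Krt18 window, and 16.59% of the 32851 promoters in the same RefSeq table hold it. Krt7 also held 4 copies of the Sp1 motif, which 35.66% of promoters hold, 1 of them overlapping an AP-2 match. The window of Krt8 held TATAAA on both strands in a single overlapping stretch at the annotated start (13.62% of promoters). No match to any of the 5 was found in the Krt5 window, which says only that these letters are not in it. The AP-1 and grainyhead-like motifs, in 7.81% and 2.09% of promoters, were in none of the 4 windows.

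The libraries differed in tissue markers as well as in genotype label. Neuron markers, of which 6 of a list of 10 were in the table, summed to 636 to 671 FPKM (a fragment count divided by transcript length and by library size) in wild type and 1.58 to 18.0 in knockout, with Nefl at 0 in knockout replicate 1 and Elavl3 at 0 in replicate 2. Muscle and heart markers (8 of 10) summed to 439 to 596 FPKM and 8.80 to 11.4. Trophoblast markers (16 of 20) summed to 61.6 to 76.8 FPKM in wild type, most of it Peg10, and 16544 to 38964 in knockout. Decidua markers (15 of 15; decidua is the uterine lining of pregnancy) summed to 94.1 to 117 and 11305 to 16678. By knockout mean, Prl8a2 (6614 FPKM) and Gzmd (3307) were the largest of these, while Wnt6 was lower in knockout (8.67 to 1.64). The defining markers of an embryo proper were thus close to absent from the libraries labelled as knockout embryos. Of 6487 genes with enough signal to test, 96.4% passed a limma adjusted p under 0.05, 47.2% higher and 49.2% lower in knockout, and in 95.6% of the 7101 the groups did not overlap (47.1% higher and 48.5% lower). The table therefore looks like a list of genes picked because they differed, and the passing of any single keratin says little beyond its being in the table. What varies among keratins, and is described below, is direction, size and balance. In whole-tissue RNA, fewer cells of a type and less RNA per cell cannot be told apart.

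The simple-epithelial keratins were among the most abundant transcripts of the knockout libraries and modest in wild type. Replicates 1 to 3 are given in that order throughout. Krt18 stood at 16.2, 13.2 and 14.1 FPKM in wild type and at 1945, 961 and 976 in knockout. Krt8, its filament partner, stood at 17.2, 14.0 and 13.6 FPKM in wild type and 1877, 694 and 951 in knockout. Each knockout library was thus far above each wild-type library for both genes, and knockout replicate 1 was the highest. The knockout mean was 89.3-fold that of wild type for Krt18 (1294 ± 564 against 14.5 ± 1.52 FPKM, mean ± SD, n = 3 in each group here and below) and 78.7-fold for Krt8 (1174 ± 622 against 14.9 ± 1.97). On the log2(FPKM + 1) scale used for testing, Krt18 rose by 6.31 (SE 0.28, limma adjusted p = 1.16e-06) and Krt8 by 6.08 (SE 0.34, limma adjusted p = 2.92e-06). Ordered by group mean among the 7101 genes, Krt18 moved from position 1987 in wild type to 36 in knockout and Krt8 from 1938 to 40.

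Krt19 and Krt7, which join Krt8 and Krt18 in trophoblast and in glandular and ductal linings, followed the same pattern at lower levels. Krt19 was at 6.23, 4.29 and 5.57 FPKM in wild type and 603, 212 and 319 in knockout. Krt7 was at 8.34, 7.39 and 7.05 FPKM in wild type and 534, 125 and 207 in knockout. The groups did not overlap for either gene, and knockout replicate 1 was again the highest and replicate 2 the lowest. The mean of Krt19 was 70.5-fold higher in knockout (log2 change 5.77, SE 0.36, limma adjusted p = 4.49e-06) and that of Krt7 38.0-fold higher (log2 change 4.81, SE 0.47, limma adjusted p = 4.06e-05). Krt8, Krt18, Krt19 and Krt7 exceeded 1 FPKM in all 6 libraries, so they entered the test whichever group was higher.

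The remaining keratins that were higher in knockout were scarce. Krt80 was at 0.305, 0.230 and 0.202 FPKM in wild type and 7.22, 11.4 and 9.32 in knockout. Unlike the abundant simple keratins, it was highest in knockout replicate 2 and lowest in replicate 1 among the knockout libraries. Its log2 change was 3.03 (SE 0.18, limma adjusted p = 3.09e-06), with the mean 37.9-fold higher. Krt23, a type I keratin of simple and glandular epithelia, was at 0.289, 0.311 and 0.137 FPKM in wild type and 0.961, 0.889 and 1.11 in knockout, too low to enter the test. Its groups did not overlap, and the mean differed 4.02-fold.

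The epidermal keratins ran the other way, from the most abundant keratin of the wild-type libraries to almost nothing. Krt5, which with Krt14 builds the filaments of basal keratinocytes, stood at 36.2, 26.4 and 21.7 FPKM in wild type and at 0.102, 0 and 0.0247 in knockout. Krt15, a basal keratin of epidermis and its appendages, stood at 18.4, 12.1 and 8.98 FPKM in wild type and 0.0337, 0.0624 and 0.163 in knockout. Every wild-type library was far above every knockout library for both genes, and wild-type replicate 1 was the highest. The knockout mean was 0.151% of wild type for Krt5 (0.0423 ± 0.0533 against 28.1 ± 7.44 FPKM) and 0.655% for Krt15 (0.0862 ± 0.0677 against 13.2 ± 4.80). Krt5 fell by 4.77 on the log2(FPKM + 1) scale (SE 0.20, limma adjusted p = 1.01e-06) and Krt15 by 3.65 (SE 0.24, limma adjusted p = 5.97e-06). That scale understates changes that end near 0. Among the 7101 genes Krt5 dropped from position 1035 by mean in wild type to 6954 in knockout and Krt15 from 2142 to 6734.

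The residual knockout values of these genes are close to the smallest the libraries hold. Read numbers were not given, but low values in the knockout libraries are spaced in steps, and 1 step in replicates 2 and 3 was worth 0.926 and 0.971 times a step in replicate 1. On that spacing the Krt5 values equal 4, 0 and 1 steps, the Krt15 values 1, 2 and 5 steps and the Krt1 values 1, 2 and 1, each within a tolerance of 2% and as the smallest whole numbers that give the values. If 1 step is 1 fragment, Krt5 rested on 5 fragments over the 3 libraries and Krt15 on 8. The exact Poisson 95% interval, which covers counting error only, then puts Krt5 at 0.0489% to 0.351% of its wild-type mean and Krt15 at 0.283% to 1.29%. The 0 of Krt5 in knockout replicate 2 allows up to 3 fragments, or 0.0709 FPKM. Of 369 genes with every knockout value under 0.15 FPKM and at least 2 values above 0, 50.9% came out as whole numbers of 5 or fewer, so the reading of steps as fragments is an inference that about as many low genes did not meet.

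The keratins of appendages and of the upper epidermis were also lower in knockout. Krt17 was at 5.33, 3.98 and 2.45 FPKM in wild type and 0.118, 0.291 and 0.151 in knockout. Its knockout mean was 4.77% of wild type, and it fell by 2.01 on the log2 scale (SE 0.22, limma adjusted p = 6.65e-05). Krt10, the type I keratin of the spinous layer, was at 2.75, 1.93 and 1.95 FPKM in wild type and 0.673, 0.448 and 0.52 in knockout. It kept the largest residue of the keratins that were lower in knockout, 24.7% of its wild-type mean, and its log2 change was −1.05 (SE 0.13, limma adjusted p = 0.000153). That call ended with quantile normalization (−0.28, adjusted p = 0.0984). Krt1, the type II partner of Krt10, was at 1.33, 0.863 and 0.718 FPKM in wild type and 0.0226, 0.0417 and 0.0219 in knockout, or 2.96% of the wild-type mean, and was too low to enter the test. In all, the groups did not overlap for any of the 11 keratins, with 6 higher and 5 lower in knockout. The same held for 95.6% of the 7101 genes (47.1% higher and 48.5% lower), so this count is not particular to keratins. Of the 9 tested, Krt5, Krt15, Krt17 and Krt10 passed the filter through the wild-type libraries alone and Krt80 through the knockout libraries alone, so those had to differ.

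**Figure D1:**
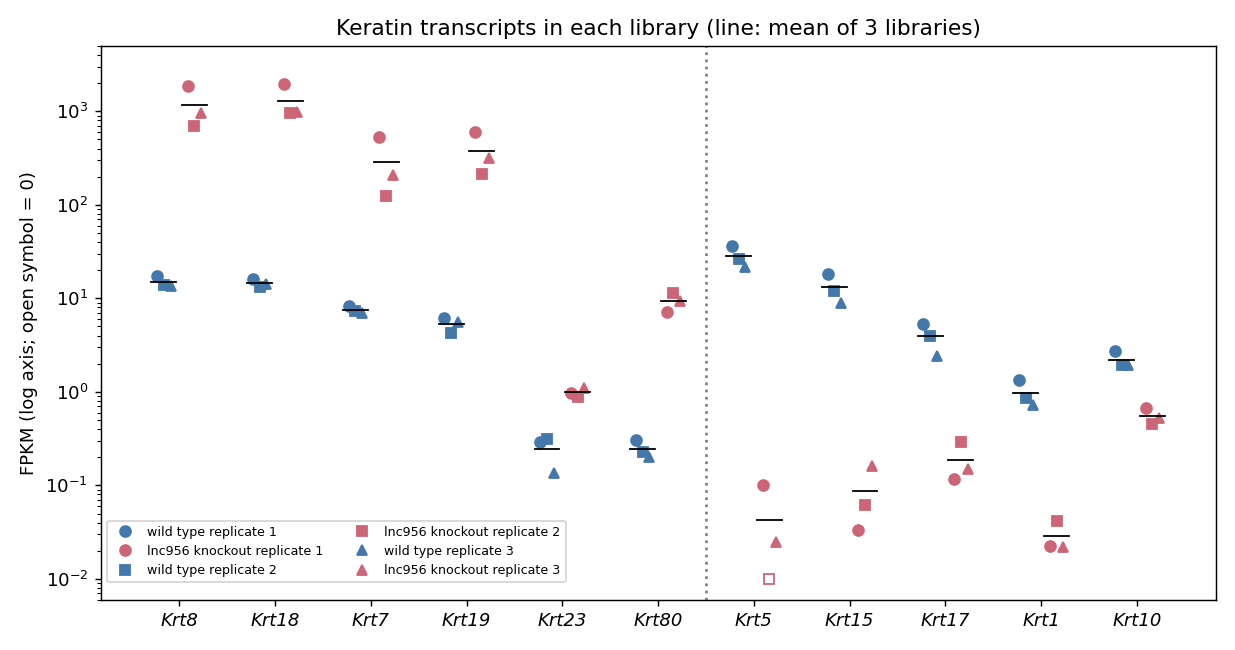
FPKM of the 11 keratin genes (log axis) in the 3 wild-type libraries (blue) and the 3 lnc956 knockout libraries (red), with symbols for replicates 1 to 3 and a line at each mean; the open square is the value of 0 for Krt5 in knockout replicate 2. Left of the dotted line the knockout libraries are higher, with Krt8 and Krt18 between 694 and 1945 FPKM, and right of it they are lower, with Krt5 and Krt15 at or below 0.163 FPKM.

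Because FPKM is per length, levels can be ordered between the 11 keratins. In wild type, Krt5 led with 21.7 to 36.2 FPKM. Krt8, Krt18 and Krt15 came next, with ranges that overlapped one another, then Krt7, and then Krt19 and Krt17, which overlapped. Krt17 also overlapped Krt10. Krt10, Krt1 and the equally low Krt80 and Krt23 closed the order. In knockout the order was Krt18 and Krt8, then Krt19 and Krt7, then Krt80, Krt23, Krt10 and Krt17, with Krt15, Krt5 and Krt1 at the bottom. The ranges of Krt18 and Krt8 overlapped, as did those of Krt19 and Krt7, but within each knockout library Krt18 was above Krt8 and Krt19 above Krt7. Krt17 and Krt15 overlapped, and Krt15, Krt5 and Krt1 did not differ beyond their spread there.

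Set against each other within a library, which removes any scaling between libraries, the simple and the epidermal pairs changed places. The sum of Krt8 and Krt18 was 33.3, 27.1 and 27.7 FPKM in wild type and 3822, 1655 and 1927 in knockout. The sum of Krt5 and Krt15 was 54.6, 38.5 and 30.6 FPKM in wild type and 0.136, 0.0624 and 0.187 in knockout. The epidermal pair thus exceeded the simple pair in each wild-type library, and the simple pair exceeded the epidermal one in each knockout library. As log2 of simple over epidermal, the ratio was −0.71, −0.50 and −0.15 in wild type and 14.78, 14.70 and 13.33 in knockout. The difference of the means was 14.72 (−0.45 ± 0.29 against 14.27 ± 0.82), and because the knockout denominator is close to 0 its size depended on how low values were handled (10.51 with 1 FPKM added to each gene). No test is given for it, since the pairs were chosen with their direction known.

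The keratin makeup of the libraries followed from this. Krt8 and Krt18 held 29.6%, 32.1% and 36.3% of the summed FPKM of the 11 keratins in wild type and 76.9%, 82.5% and 78.2% in knockout. Krt5 and Krt15 held 48.6%, 45.5% and 40.1% in wild type and between 0.00274% and 0.0076% in knockout. The 5 keratins classed as simple made up 42.8% to 52.9% of the sum in wild type and 99.4% to 99.8% in knockout. Keratins outside these 11, such as Krt14, are not in the sum, so the shares do not describe all keratin transcript. The sum itself was 113, 84.7 and 76.4 FPKM in wild type and 4968, 2005 and 2465 in knockout. As a share of the summed FPKM of all genes in the table, the 11 keratins held 0.0449% to 0.0564% in wild type and 0.659% to 1.71% in knockout.

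The ratio of type II to type I transcripts moved far less than the levels did. Krt8 over Krt18 was 1.06, 1.06 and 0.963 in wild type and 0.965, 0.722 and 0.974 in knockout. The lone library away from parity was knockout replicate 2, and the values of the groups met: knockout replicates 1 and 3 were at the level of wild-type replicate 3. The log2 ratio differed by −0.23 between the means (0.04 ± 0.08 in wild type and −0.19 ± 0.25 in knockout), and by −0.08 without knockout replicate 2. Summed over all members, type II over type I was 1.29, 1.36 and 1.30 in wild type and 0.948, 0.707 and 0.900 in knockout. Among these members, type II was thus ahead in the wild-type libraries and type I in the knockout libraries. The sums include Krt5 but not Krt14, its usual type I partner, so they do not give the balance of all keratin transcript. The balance of Krt7 to Krt19 also moved without overlap, from 1.34, 1.72 and 1.27 to 0.885, 0.589 and 0.65. Krt7 stood at 0.485 to 0.529 of the level of Krt8 in wild type and 0.180 to 0.285 in knockout, while Krt19 over Krt18 overlapped between the groups (0.325 to 0.395 and 0.221 to 0.327). Krt5 over Krt15 was 1.97, 2.18 and 2.41 in wild type; in knockout the values were too close to 0 for a ratio.

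**Figure D2:**
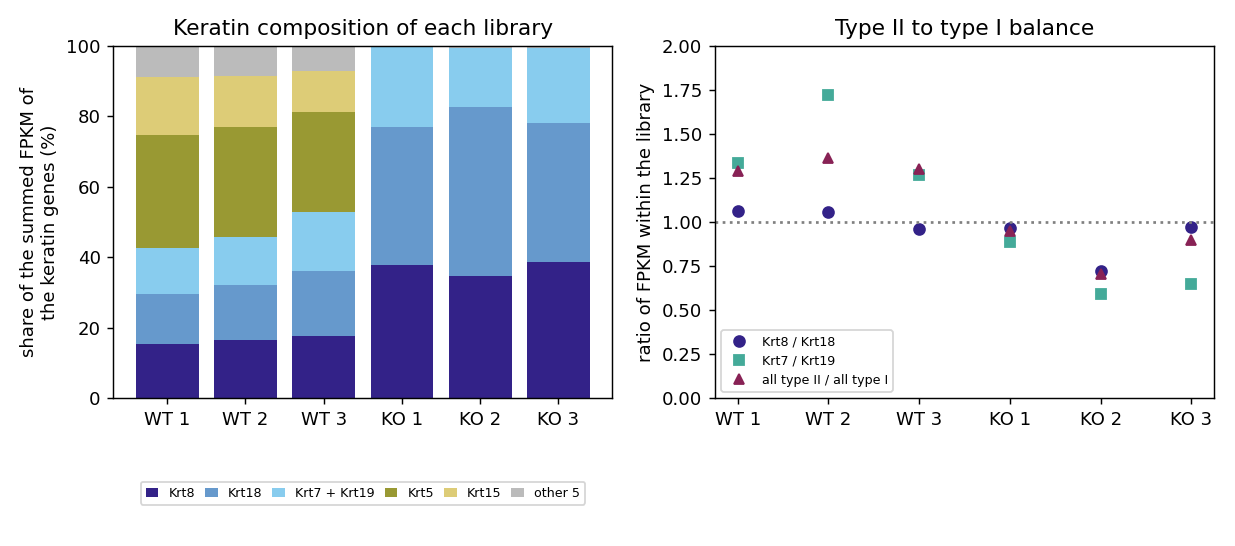
Left, the share (%) of the summed FPKM of the 11 keratin genes held by each keratin or pair in each wild-type (WT) and knockout (KO) library. Right, ratios of FPKM within each library for Krt8 over Krt18, Krt7 over Krt19 and type II over type I among the 11 genes. Krt14 is not among them. Krt5 and Krt15 hold 40.1% to 48.6% in wild type and are not visible in knockout. Krt8 over Krt18 stays between 0.722 and 1.06.

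The knockout libraries were uneven among themselves in the abundant keratins. Krt7 was 4.27-fold higher in knockout replicate 1 than in replicate 2, Krt19 2.84-fold, Krt8 2.70-fold and Krt18 2.02-fold. All 4 genes were highest in knockout replicate 1 and lowest in replicate 2. Relative to each gene's knockout mean, their median was 1.60 in replicate 1, 0.576 in replicate 2 and 0.782 in replicate 3. The 16 trophoblast markers had medians of 1.15, 0.426 and 0.877 in the same libraries, with 9 of the 16 lowest in replicate 2. Of the 16, 8 were highest in replicate 1 and 7 in replicate 3. Their summed level was highest in replicate 1, where Prl2c2 (14208 FPKM) and Prl3d1 (8089) were the largest. The 15 decidua markers had medians of 0.731, 1.24 and 0.953, with 11 of the 15 highest and 1 lowest in replicate 2. Replicate 2, lowest in the simple keratins, was thus also the lowest in the median trophoblast marker and the highest in the median decidua marker. Also lowest there were 12 of 16 general epithelial genes, 11 of 15 surface epithelium and epidermis regulators and 6 of 8 desmosome genes. The same held for 5 of 9 keratin regulation genes, but for only 3 of 11 hemidesmosome and linker genes and 1 of 4 cornified layer genes. How many of all genes in the table were lowest in replicate 2 was not counted. No count by replicate is therefore shown to be particular to its list. The 10 yolk sac endoderm markers summed to 141 to 242 FPKM in wild type and 79.6 to 186 in knockout. Most of the sum in knockout replicates 1 and 2 was Rbp4 (66.4 and 154 FPKM). Of 7 tested, 2 rose, Rbp4 among them, 4 fell and 1 did not pass. Over all tested genes, 47.2% rose and 49.2% fell. Relative to each gene's knockout mean, the markers had medians of 0.277, 0.0553 and 2.70. Of the 10, 8 were lowest in replicate 2 and 7 highest in replicate 3. The part of these tissues in the keratin levels was not tested. Wild-type replicate 1 exceeded replicate 3 by 1.26-fold for Krt8, 1.14-fold for Krt18, 1.12-fold for Krt19 and 1.18-fold for Krt7, and by 1.67-fold for Krt5, 2.05-fold for Krt15 and 2.18-fold for Krt17. Krt23, the scarcest simple keratin, differed 2.12-fold, and Krt19 was lowest in wild-type replicate 2, at 0.799 of its wild-type mean.

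**Figure D3:**
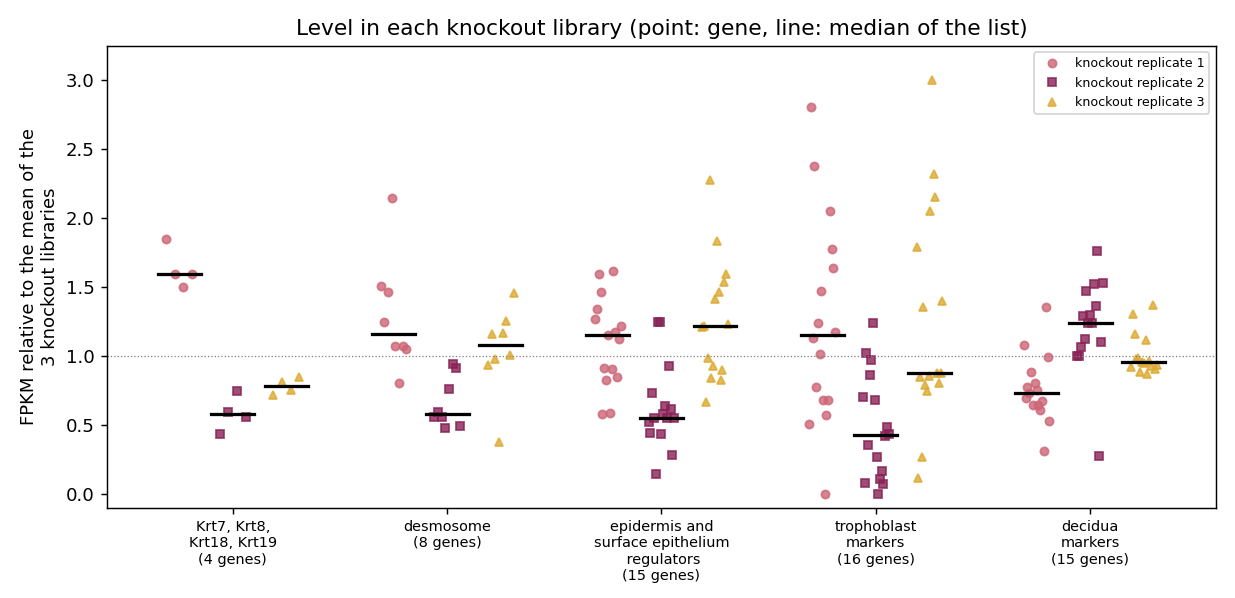
FPKM in each knockout library relative to the mean of the 3 knockout libraries, for Krt7, Krt8, Krt18 and Krt19 and for every gene in the table from the lists of desmosome genes, surface epithelium and epidermis regulators, trophoblast markers and decidua markers. Points are genes and thick lines list medians; the keratins have medians of 1.60, 0.576 and 0.782 in replicates 1 to 3 and the decidua markers 0.731, 1.24 and 0.953.

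The genes whose profiles over the 6 libraries were nearest to each keratin were found by the smallest Euclidean distance between log2(FPKM + 1) values centred on each gene's mean. For Krt8 these were Krt18 (distance 0.45), Krt19 (0.46) and the serpin gene Serpinb6b (0.53). For Krt18 they were Isg20, an exonuclease gene (0.42), Krt8 (0.45) and Serpinb6b (0.47). Krt18 and Krt19 were thus the genes nearest to Krt8, while Krt7 was among the 3 nearest to neither Krt8 nor Krt18. Krt5 was nearest to genes of other wild-type tissues: Myh3, an embryonic muscle myosin (0.24), Tnni1, a slow muscle troponin (0.32), and the transcription factor gene Osr1 (0.35). Krt15 was nearest to Eln, which encodes elastin (0.22), the actin gene Acta1 (0.31) and Lrrc17 (0.38). These likenesses describe 6 libraries in 2 groups, and any gene that differs by the same size between the groups comes out near.

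Keratin filaments are anchored at desmosomes, the junctions that tie epithelial cells to each other, and genes of this junction rose with the simple keratins. All 8 desmosome genes in the table, of 19 on the list, were tested and rose, where 47.2% of all tested genes did, with a median log2 change of 2.76 (0.38 over all genes tested). Dsc2, a desmosomal cadherin, was at 1.18, 1.31 and 1.54 FPKM in wild type and 30.9, 36.0 and 47.8 in knockout (log2 change 4.04, SE 0.19, limma adjusted p = 1.41e-06). Its partner cadherin Dsg2 was at 1.61, 1.26 and 1.59 and 27.4, 19.5 and 29.8 (log2 change 3.40, SE 0.19, limma adjusted p = 2.9e-06). The other members that rose include genes of plaque proteins, among them Dsp, desmoplakin, which binds keratin filaments directly (4.40 ± 0.169 to 41.6 ± 19.9 FPKM), and the plakophilin Pkp2 (2.28 ± 0.543 to 46.4 ± 20.9). Dsg2 and Dsc2 are the cadherins of simple epithelium and heart as well as of stratified layers. The cadherins typical of epidermis, such as Dsg1 and Dsg3, were on the list but not among the 8 in the table. Their levels are therefore unknown.

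Genes of hemidesmosomes, which tie basal cells to the basement membrane, and of keratin linkers were split. Of 11 in the table, 9 were tested: 6 rose, 2 fell and Itga6 did not pass (9.81 to 11.0 FPKM in wild type and 9.98 to 22.8 in knockout). Over all tested genes, 47.2% rose and 49.2% fell. Of the list members, 2 that rose passed the filter through the knockout libraries alone and 1 that fell, Col7a1, through wild type alone. The tetraspanin gene Cd151 rose from 27.0 ± 3.62 to 168 ± 31.6 FPKM (log2 change 2.58, limma adjusted p = 7.23e-06). The linker gene Plec, whose product plectin joins keratin to integrins, rose from 7.49 ± 1.05 to 24.5 ± 6.95 FPKM. Those that fell are typical of skin: Col17a1, a transmembrane collagen of hemidesmosomes, from 1.95 ± 0.449 to 0.505 ± 0.561 FPKM, and Col7a1, the collagen of anchoring fibrils, from 1.75 ± 0.171 to 0.46 ± 0.124. Both calls ended with quantile normalization (adjusted p = 0.306 and 0.311).

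Regulators of surface epithelium and epidermis also divided. Of 14 tested, of 15 in the table and 21 on the list, 11 rose and 3 fell. The shares over all tested genes were 47.2% and 49.2%. The list had a median log2 change of 1.35, against 0.38 over all genes tested. Gata3 and Klf5, which act in trophoblast and in several epithelia, rose from 3.15 ± 0.225 to 19.6 ± 2.97 FPKM and from 2.38 ± 0.651 to 19.8 ± 4.31. Tfap2c, an AP-2 factor gene of trophoblast and surface ectoderm, rose to 54.7 ± 26.7 FPKM from 3.82 ± 0.441, a log2 change of 3.38. Its relative Tfap2a, a factor of surface ectoderm and neural crest, fell from 5.69 ± 0.59 to 1.35 ± 0.559 (log2 change −1.54, limma adjusted p = 0.000228). Grhl3, a grainyhead-like factor gene needed for the epidermal barrier, also fell (2.19 ± 0.196 to 0.509 ± 0.574 FPKM). Its relatives Grhl1 and Grhl2 rose, from 0.575 ± 0.104 to 3.73 ± 1.93 FPKM and from 1.36 ± 0.239 to 4.66 ± 2.14. Grhl1 was 1 of 3 members that rose and passed the filter through the knockout libraries alone. With quantile normalization the count of members that fell was 1, and the call of Grhl3 ended (adjusted p = 0.0911).

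General epithelial genes rose by less than the simple keratins. Of 16 tested, 13 rose (47.2% of all tested genes did), Cldn6 fell, and Crb3 and Ap1m2 did not pass. Their median log2 change was 1.02. Crb3 passed with either rescaling, with a pseudocount of 0.1, with the replicate block (adjusted p = 0.0481 against 0.0656) and without knockout replicate 2 or 3, and Ap1m2 passed with quantile normalization (adjusted p = 0.0183). The adhesion gene Epcam was at 11.7, 12.1 and 9.87 FPKM in wild type and 31.0, 30.1 and 30.3 in knockout, a log2 change of 1.37 (SE 0.14, limma adjusted p = 3.96e-05). Cdh3, P-cadherin, which in mouse is abundant in placenta and uterus, rose from 10.6 ± 0.615 to 68.3 ± 15.8 FPKM (2.55, limma adjusted p = 1.05e-05). Cdh1, E-cadherin, rose from 5.31 ± 0.569 to 13.1 ± 6.42. Krt8 and Krt18 thus increased 78.7-fold and 89.3-fold where the mean of Epcam was 2.71-fold and that of Cdh1 2.46-fold higher. The largest rise of the list was that of Prss8, 21.3-fold (1.38 ± 0.0922 to 29.4 ± 21.5 FPKM). The fall of Cldn6 (10.3 ± 0.87 FPKM to 0.987, 0.401 and 8.25 in knockout replicates 1 to 3) was lost when replicate 1 of wild type, or replicate 1 or 2 of knockout, was left out (adjusted p = 0.0664, 0.0601 and 0.0855).

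Among genes of the upper, cornifying epidermis, where Krt1 and Krt10 belong, only 4 of the 22 on the list were in the table: Sbsn, Tgm1 and Aloxe3 rose and Lor did not pass (2.46 to 3.65 FPKM in wild type and 5.36, 9.83 and 0.939 in knockout). Tgm1 and Aloxe3 passed the filter through the knockout libraries alone, so they had to be higher there. Beside these counts, 47.2% of all tested genes rose. The log2 change of Lor was 0.33, and −0.21 without knockout replicate 2 and 1.03 without replicate 3 (limma adjusted p = 0.689 and 0.01). Sbsn encodes suprabasin, a secreted protein first described in suprabasal epidermis. It stood at 1.67, 2.22 and 2.61 FPKM in wild type and 576, 896 and 561 in knockout (log2 change 7.72, SE 0.22, limma adjusted p = 4.45e-07), and was highest in knockout replicate 2, where Krt8 was lowest. Aloxe3, an epidermal lipoxygenase gene, was at 0.0812, 0 and 0.0766 FPKM in wild type and 4.33, 6.67 and 3.59 in knockout (log2 change 2.44, limma adjusted p = 1.34e-05). The crosslinking enzyme gene Tgm1 rose from 0.695 ± 0.175 to 23.6 ± 16.3 FPKM.

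Genes that act on keratins or on stressed filaments moved in both directions. Of 9 tested, of 19 on the list, 6 rose (47.2% of all tested genes did), 2 fell and Trim29 did not pass. The number that rose was 4 without wild-type replicate 3 and 5 without wild-type replicate 2. Trim29 passed with either rescaling (log2 change 0.39 as deposited, and 0.65 and 0.98 with trimmed-mean rescaling and quantile normalization). Hspb1, a small heat shock protein that associates with keratin filaments, averaged 39.2 ± 5.44 FPKM in wild type and rose to 680.0 ± 131 (log2 change 4.07, SE 0.19, limma adjusted p = 1.25e-06). Bag3, a cochaperone gene, rose from 8.15 ± 0.95 to 73.0 ± 12.7 FPKM (3.01, limma adjusted p = 2.75e-06). Tgm2, a transglutaminase gene, rose from 10.5 ± 2.42 to 319 ± 183 FPKM. Fbf1, which encodes a keratin-binding protein, fell from 19.8 ± 0.888 to 5.51 ± 1.26 FPKM (log2 change −1.70, limma adjusted p = 5.9e-05).

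Among other intermediate filament genes, all 8 in the table, of 17 on the list, were tested. Des and Lmna rose and 6 fell, where 47.2% of all tested genes rose and 49.2% fell. Of those that fell, 3, Nefl and Nefm among them, passed the filter through wild type alone. Des, desmin of muscle and decidual stroma, was at 13.8, 10.9 and 9.10 FPKM in wild type and 378, 862 and 520 in knockout (log2 change 5.52, SE 0.31, limma adjusted p = 2.66e-06). Des was lowest in knockout replicate 1, where Krt8 and Krt18 were highest. Nefl and Nefm, filament genes of neurons, fell from 75.5 ± 6.78 and 49.0 ± 7.65 FPKM to 0.0448 ± 0.0416 and 0.0643 ± 0.0283 (log2 changes −6.19 and −5.54, limma adjusted p = 2.2e-07 and 4.44e-07), to residues of the same order as that of Krt5. Lmna, the A-type lamin gene, rose from 29.0 ± 8.74 to 90.5 ± 16.7 FPKM, whereas the B-type lamin genes Lmnb1 and Lmnb2 fell to 8.96% and 10.1% of wild type.

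**Figure D4:**
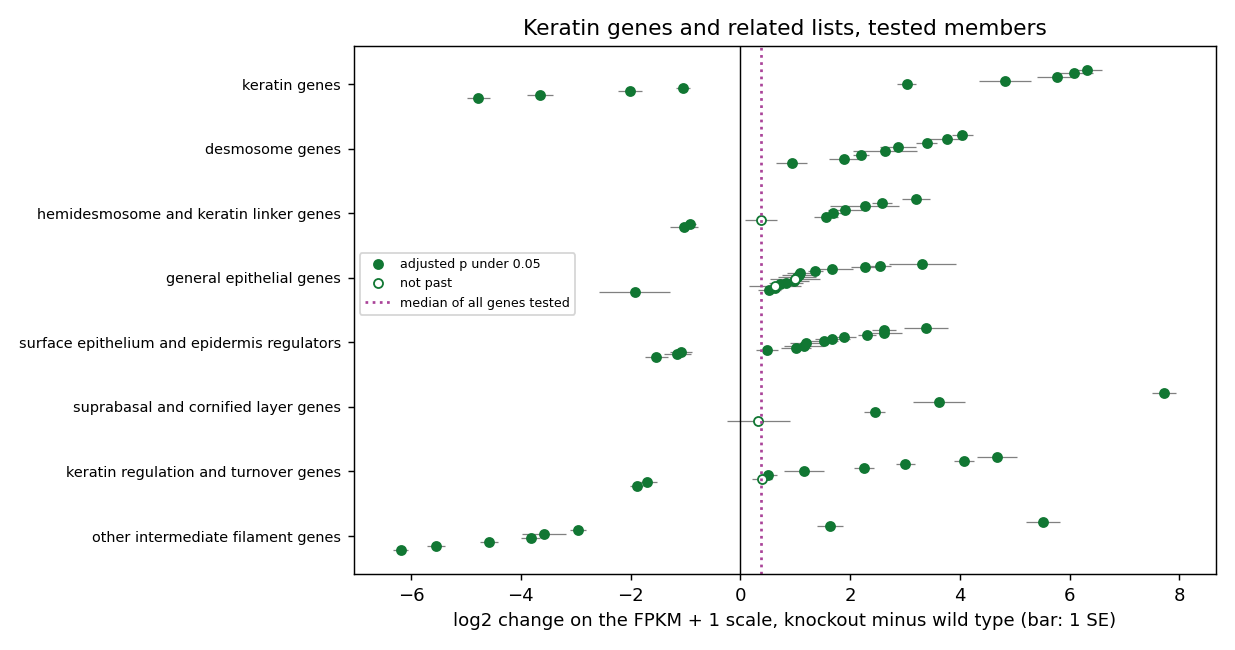
Log2 change on the FPKM + 1 scale (knockout minus wild type, bar 1 SE) of each tested keratin gene and each tested member of 7 related lists; filled points passed a limma adjusted p under 0.05, and the dotted line is the median of all genes tested (0.38). The 8 desmosome genes are all to the right of 0, and the keratins reach from −4.77 (Krt5) to 6.31 (Krt18).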

How the data were processed

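RNA-seq values of 6 libraries were used, 3 wild type and 3 lnc956 knockout, grouped by the labels. The values deposited by the authors were read as FPKM. The header gives no unit; the reasons are that no quantifier other than Cufflinks is named and that values are fractional. TopHat2 2.0.8 and Cufflinks 2.1.1 were used with mm9 and mm10 listed as builds, per the submitters' processing notes. How reads shared by similar keratin genes were divided, and why these genes are in the table, is not stated. FPKM moves with a few abundant transcripts, and the number of reads per library is unknown.

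Tests were run on log2(FPKM + 1) with limma 3.58.1 in R 4.3.3 (eBayes, trend and robust, two-sided, genotype alone). Genes under 1 FPKM in more than 3 libraries (614) were left out and 6487 kept, with Benjamini-Hochberg adjustment and a threshold of 0.05. A 3 against 3 exact test cannot go below p = 0.1, so none is given. The members and lists were chosen with earlier results of these data known. Each list's 2 members of smallest p per direction are named, except for some not reported here, and others were added after their values were seen. On simulated data with these 6487 genes, 50 genes were changed at each size, drawn from those of higher wild-type level, and most were left unchanged. Of genes changed by a log2 of 1, 72% were recovered, and of those changed by 2, 92%. Of the unchanged genes, 10 were called. In the real values 96.4% passed, so these rates do not carry over to them or to genes of low level. The pseudocount (0.1 or 5), the filter, the scaling, the limma settings, a replicate block and single libraries were varied.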

Additional observations from a re-analysis of the deposited data

How the results depend on the processing

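Of 126 values for the 9 tested keratins under the other settings, 125 kept their direction and their side of the threshold; the exception was Krt10 with quantile normalization. Leaving out 1 library at a time gave log2 changes of 5.97 to 6.48 for Krt18, 5.68 to 6.40 for Krt8, −4.94 to −4.58 for Krt5 and −3.88 to −3.40 for Krt15. The median of all genes tested was 0.38 as deposited, 0.63 with a trimmed-mean rescaling and 0.01 with quantile normalization, and the direction of every tested keratin held under both. The simple to epidermal difference of 14.72 was 13.24 with 0.1 FPKM added, 10.51 with 1 FPKM added, 13.19 from the mean of logs and 14.47 to 15.19 with 1 library left out. The log2 change of Lor, 0.33, was −0.21 without knockout replicate 2 and lay between −0.21 and 1.03 with 1 library left out. For Krt8 over Krt18 the difference lay between −0.30 and −0.08 with 1 library left out. The Krt5 to Krt15 difference was not run, since a knockout library was at 0. With quantile normalization the lower counts became 0 for hemidesmosome and linker genes and 1 for surface epithelium and epidermis regulators, and the cause was not tested. The lower count of general epithelial genes, 1, ranged from 0 to 1 with 1 library left out. The labels do not say whether the replicate numbers pair the libraries. Deviations of same-numbered libraries from their group means correlated at −0.06, 0.08 and 0.11 across genes. Wild-type replicates 2 and 3 correlated best with the knockout library of the same number, and wild-type replicate 1 with knockout replicate 2 (0.05). With 3 libraries in each group, these values cannot decide whether the libraries are paired. With the replicate block, 3038 genes were higher and 3192 lower, against 3065 and 3191, and a block cannot move a log2 change in this balanced design.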
